A study of Homo sapiens with 14 samples.

Results

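The surface glycoprotein genes CD9, CD24, CD44, EPCAM, CD81, CD63 and CD151 were examined in prostate cancer cells treated with SEL120-34A, which inhibits CDK8 and CDK19, the kinases of the Mediator complex. They are 7 of the 62703 genes in the count table and were found by gene name. CD9 and CD24 were selected because their measured responses differed between LNCaP and 22Rv1, so every difference given for these genes is a description without a test. The other 5 were added as related surface proteins with earlier results of these data known, and were tested. Among them, the values of CD44 are given as descriptions because its counts were low.

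The cells were LNCaP, which depends on androgen and is sensitive to enzalutamide, 22Rv1, which is resistant to it, and PC3, which grows without androgen. All were cultured in RPMI-1640 with fetal bovine serum and received either 1.5 µM SEL120-34A or its solvent DMSO for 3 days. Each arm had 3 libraries in LNCaP and in 22Rv1 and 1 library in PC3, and all controls received solvent. Only LNCaP was grown on plates coated with poly-D-lysine. The study's methods speak in general of biological replicates, but the labels do not tie the libraries of an arm to separate cultures. The p-values therefore measure the spread between these libraries.

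Tetraspanins such as CD9, CD81, CD63 and CD151 are small proteins that span the membrane 4 times and gather integrins, immunoglobulin-family proteins and proteases into membrane microdomains. CD9, CD81 and CD63 are also widely used as markers of extracellular vesicles. CD24 is a short, heavily glycosylated protein held by a lipid anchor, CD44 is the main receptor for hyaluronan, and EPCAM is an adhesion protein of epithelia. In prostate tissue CD44 is known as a marker of basal cells, and CD24 and EPCAM as markers of luminal epithelium.

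To show the regulatory sequence of the genes whose responses differed, the 250 bases before a start site were read from RefSeq on GRCh38.p14, which held an entry for 4 of the 7 genes (CD9, CD24, CD44 and CD63) and none for EPCAM, CD81 or CD151. The CD9 window lies at chr12:6200150-6200399 on the plus strand and ends at the start of the canonical transcript. The CD24 window lies at chr6:106975628-106975877 on the minus strand and ends at the 5′ end of the annotated gene, 898 bases upstream of the start of the canonical transcript, so the windows differ in their place relative to that start. Capitals mark the GC box GGGCGG, read on both strands, in which neighbouring boxes may abut.
CD9: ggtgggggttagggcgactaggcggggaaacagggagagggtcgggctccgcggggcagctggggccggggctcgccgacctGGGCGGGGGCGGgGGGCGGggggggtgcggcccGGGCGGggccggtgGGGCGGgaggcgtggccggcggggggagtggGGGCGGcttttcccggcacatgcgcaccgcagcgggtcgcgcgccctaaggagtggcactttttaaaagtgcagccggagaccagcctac
CD24: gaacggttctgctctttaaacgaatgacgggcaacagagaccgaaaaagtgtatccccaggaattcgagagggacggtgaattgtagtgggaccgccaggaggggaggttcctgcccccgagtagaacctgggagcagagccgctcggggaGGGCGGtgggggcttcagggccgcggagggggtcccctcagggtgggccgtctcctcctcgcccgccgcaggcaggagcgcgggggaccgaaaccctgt
The CD9 window held 6 GC boxes and 28 CpG dinucleotides at a GC content of 76.8%. The CD24 window held 1 GC box and 20 CpG dinucleotides at 65.6%. Of 35116 windows of this length, 42.6% held a GC box, and the median window had 11 CpG dinucleotides and a GC content of 58.0%. Neither window held the TATA box TATAAA, present in 10.7% of all windows, or the letters CCAAT, present in 32.0%. These are matches of letters and were not tested for factor binding.

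Levels are CPM, counts divided by the library total and scaled by TMM factors, which balance libraries of different composition. Counts come from tags at the 3′ ends of transcripts, so levels were compared between libraries for 1 gene and not between genes. Total counts ranged from 246063 to 909176 per library, and all 3 treated 22Rv1 libraries were shallower than their controls. Mitochondrial genes took 13.9% to 17.3% of counts in LNCaP DMSO and 16.5% to 23.3% in LNCaP SEL120-34A libraries. In 22Rv1 the range was 7.60% to 9.82% with DMSO and 9.52% to 13.1% with SEL120-34A. Replicate 2 of 22Rv1 SEL120-34A was the shallowest library and had the highest mitochondrial share of its line. With all 12 LNCaP and 22Rv1 libraries thinned to the smallest total, the log2 fold change was 3.11 for CD24 in LNCaP and 1.13 for CD9 in 22Rv1. The part of the mitochondrial share in the results was not tested.

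CD9 (chromosome 12, 6199715 to 6238271, plus strand) was higher in SEL120-34A than in DMSO in 22Rv1 and differed little in LNCaP. In 22Rv1 the DMSO libraries held 298, 298 and 303 CPM (152, 159 and 254 counts). The treated libraries held 631, 846 and 613 CPM (229, 197 and 215 counts). Every treated library thus lay above every control, and the groups were far apart. The log2 fold change was 1.22 ± 0.14 (SE, 3 against 3 libraries), a 2.32-fold higher level. Replicate 2 of the treated arm was the highest, and without it the log2 fold change was 1.07. The 22Rv1 controls were closer together (SD 2.88 CPM) than their counting error (22.4 CPM), so their small spread cannot be read as precision.

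In LNCaP, CD9 was at 775, 741 and 646 CPM with DMSO and at 678, 626 and 617 CPM with SEL120-34A. These groups overlapped, and the log2 fold change was -0.14 ± 0.13. The effect in LNCaP minus that in 22Rv1 was -1.36 ± 0.19 on the log2 scale, with a 95% interval from -1.74 to -0.98. This is the value on which CD9 was selected, and the interval does not allow for that selection. In these bulk samples a larger share of cells with the transcript and more transcript per cell cannot be told apart.

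CD24 (chromosome 6, 106969831 to 106975627, minus strand) showed the opposite arrangement. In LNCaP the DMSO libraries held 4.23, 13.1 and 14.0 CPM, from 3, 5 and 10 counts. The treated libraries held 78.0, 54.2 and 46.5 CPM, from 20, 20 and 22 counts. The lowest treated library was above the highest control, and the log2 fold change was 2.51 ± 0.37, a 5.71-fold higher level. Control replicate 1 was the lowest library and had 3 counts. Leaving it out gave a log2 fold change of 2.08.

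In 22Rv1, CD24 was at 70.7, 63.6 and 76.3 CPM with DMSO and at 57.9, 38.6 and 54.2 CPM with SEL120-34A. All treated libraries were below all controls, but the treated libraries rested on 21, 9 and 19 counts. The log2 fold change was -0.44 ± 0.27, with a 95% interval from -0.99 to 0.10. The effect in LNCaP minus that in 22Rv1 was 2.96 ± 0.46, with a 95% interval from 2.04 to 3.88. CD24 was selected on these responses, and the intervals do not allow for that selection. Pseudogene copies of CD24 together held 1 count in all 14 libraries. Counts of CD24 were low throughout LNCaP, which limits how closely its fold change is known.

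**Figure D1:**
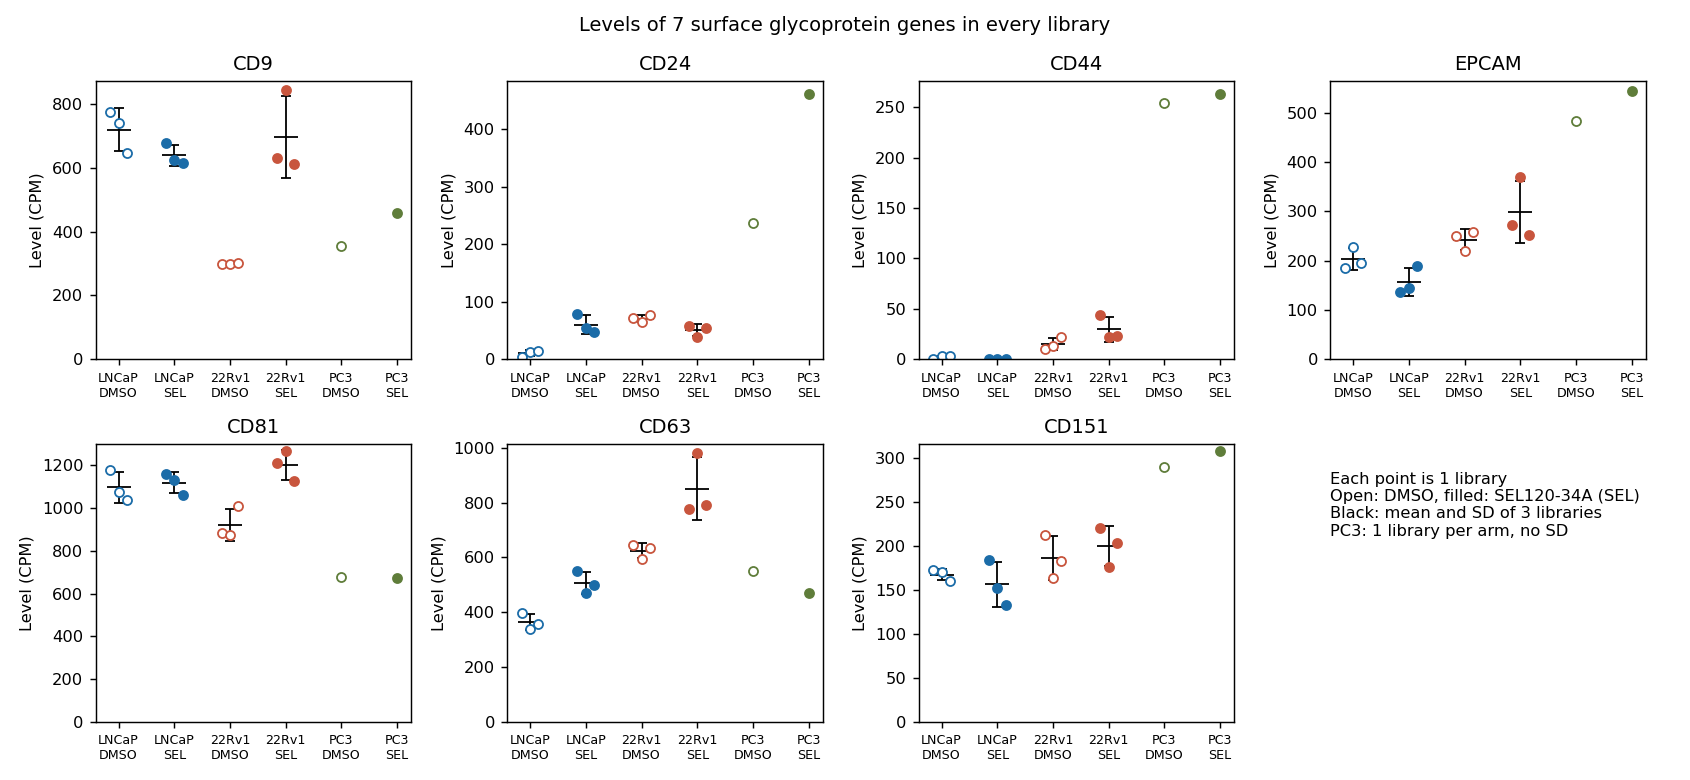
Level of each of the 7 genes (y axis, CPM, linear from 0) in every library, grouped by cell line and treatment on the x axis. Open points are DMSO and filled points SEL120-34A libraries, and black marks give the mean and SD of 3 libraries, with none for PC3. CD9 was at 298 to 303 CPM in 22Rv1 DMSO libraries and at 613 to 846 CPM after treatment, and CD24 was at 4.23 to 14.0 CPM in LNCaP DMSO libraries and at 46.5 to 78.0 CPM after treatment.

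Among the 5 genes tested, CD63 was higher after SEL120-34A in both lines and CD81 in 22Rv1. The changes of CD63 and CD81 were smaller than those of CD24 in LNCaP (log2 fold change 2.51) and CD9 in 22Rv1 (1.22). They were not all smaller than those of CD9 in LNCaP (-0.14) and CD24 in 22Rv1 (-0.44). CD9 and CD24 were selected on their responses, so this comparison of sizes is a description. CD63 (chromosome 12, 55725323 to 55729707, minus strand) encodes a tetraspanin of late endosomes and lysosomes. In LNCaP it was at 396, 340 and 358 CPM with DMSO and at 550, 469 and 501 CPM with SEL120-34A. In 22Rv1 it was at 644, 595 and 636 CPM with DMSO and at 777, 983 and 793 CPM with SEL120-34A. Treated and control libraries did not overlap in either line. CD63 rose by 0.49 ± 0.13 (log2, SE) in LNCaP (edgeR quasi-likelihood test, adjusted p = 0.0287) and by 0.45 ± 0.12 in 22Rv1 (adjusted p = 0.0242). The effects in the lines differed by 0.04 ± 0.18, with a 95% interval from -0.32 to 0.41 (adjusted p = 0.957). The antisense gene CD63-AS1 held 45 counts against 3962 of CD63, and the use of strand in counting was not stated.

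CD81 (chromosome 11, 2376177 to 2397802, plus strand) encodes a tetraspanin that partners the immunoglobulin-family proteins IGSF8 and PTGFRN. In 22Rv1 it was at 881, 872 and 1009 CPM with DMSO and at 1210, 1266 and 1127 CPM with SEL120-34A. The groups did not overlap, and CD81 rose by 0.39 ± 0.12 (edgeR, adjusted p = 0.0407). In LNCaP it was at 1179, 1076 and 1037 CPM with DMSO and at 1158, 1133 and 1062 CPM with SEL120-34A, a log2 fold change of 0.06 ± 0.12 (adjusted p = 0.898). The LNCaP value changed sign to -0.04 when libraries were scaled by their totals alone. The difference between the lines was -0.34 ± 0.17 and did not pass the test (adjusted p = 0.443), so a difference in the response of CD81 between the lines was not shown.

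These calls were close to the threshold. The CD63 call in LNCaP was lost in 9 of 22 alternative settings (adjusted p = 0.0140 to 0.277), among them without DMSO replicate 2 or 3 or SEL120-34A replicate 1 or 2 of LNCaP (adjusted p = 0.158, 0.139, 0.180 and 0.0705). The CD63 call in 22Rv1 was lost in 8 of 22 (0.0167 to 0.207), among them without any 1 of the 22Rv1 DMSO replicates (adjusted p = 0.0636, 0.0840 and 0.0828) or SEL120-34A replicate 2 (0.179). The CD81 call in 22Rv1 was lost in 17 of 22 (0.0190 to 0.333), 10 of them by leaving out 1 library of either line, the exceptions being LNCaP SEL120-34A replicate 3 and 22Rv1 SEL120-34A replicate 3. The changes kept their sign in all of these settings. Replicate 2 of 22Rv1 SEL120-34A, with the highest CD63 and CD81 level of its arm, also had the highest mitochondrial share, and without it the 22Rv1 changes were 0.35 for CD63 and 0.36 for CD81 (log2).

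CD151 (chromosome 11, 832887 to 839831, plus strand) encodes a tetraspanin that binds laminin-binding integrins. It was at 172, 170 and 159 CPM in LNCaP DMSO and at 183, 152 and 133 CPM in LNCaP SEL120-34A libraries, a log2 fold change of -0.10 ± 0.17 (edgeR, adjusted p = 0.879). In 22Rv1 it was at 212, 163 and 182 CPM with DMSO and at 220, 176 and 203 CPM with SEL120-34A, a log2 fold change of 0.13 ± 0.16 (adjusted p = 0.722). The groups overlapped in both lines, and the 95% intervals ran from -0.44 to 0.25 in LNCaP and from -0.20 to 0.46 in 22Rv1. With library totals the 22Rv1 value changed sign to -0.01. Near its 3′ end CD151 overlaps POLR2L on the opposite strand (376 counts against 1448 for CD151), and reads of the 2 genes cannot be told apart there if strand was not used.

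EPCAM (chromosome 2, 47345158 to 47387601, plus strand) had fold changes of opposite sign in the 2 lines, and neither passed the test. In LNCaP it was at 185, 228 and 196 CPM with DMSO and at 136, 144 and 188 CPM with SEL120-34A. In 22Rv1 it was at 249, 219 and 259 CPM with DMSO and at 273, 369 and 251 CPM with SEL120-34A. Treated and control libraries overlapped in both lines. The log2 fold change was -0.30 ± 0.17 in LNCaP (edgeR, adjusted p = 0.453) and 0.28 ± 0.16 in 22Rv1 (adjusted p = 0.346). The difference between the lines was -0.58 ± 0.23 (95% interval -1.05 to -0.11, edgeR adjusted p = 0.317, 0.0161 before adjustment).

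CD44 (chromosome 11, 35138882 to 35232402, plus strand) was almost undetected in LNCaP. The LNCaP DMSO libraries held 0, 1 and 2 counts, and the 3 treated libraries held 0 counts, which allows up to 2.73 CPM over the group. No fold change is given for LNCaP. In 22Rv1 CD44 was at 9.82, 13.1 and 21.5 CPM with DMSO (5, 7 and 18 counts) and at 44.1, 21.5 and 22.8 CPM with SEL120-34A (16, 5 and 8 counts). The treated and control ranges overlapped, and the log2 fold change was 0.96 ± 0.45. Without treated replicate 1, the highest library, the log2 fold change was 0.52. CD44 passed the filter on low counts only through its 22Rv1 libraries, so its change there is a description without a test. It was not called in either line and stays in the counts of the 5 genes tested.

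**Figure D2:**
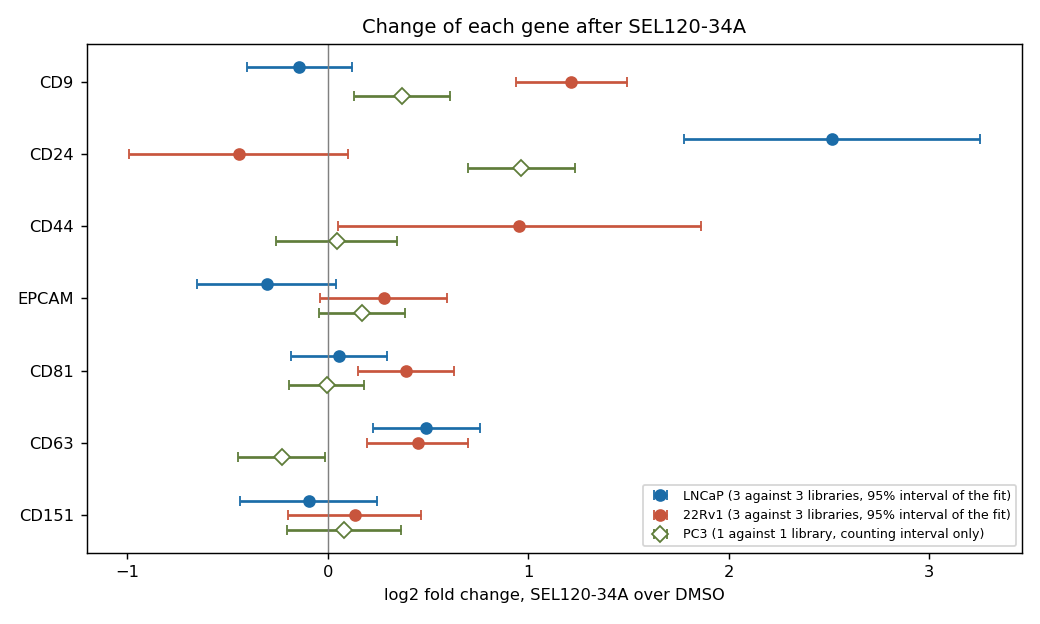
Change of each gene after SEL120-34A (x axis, log2 fold change over DMSO), one row per gene. Filled circles are the fitted values in LNCaP and 22Rv1 with 95% intervals, and open diamonds the ratio of the PC3 library pair with an interval for counting error only. CD44 in LNCaP is not drawn because its libraries held 2 counts or fewer. CD24 in LNCaP (2.51) and CD9 in 22Rv1 (1.22) lay furthest from 0, and CD63 lay at 0.49 and 0.45 in the 2 lines.

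Of the 5 genes tested, 1 was called in LNCaP, where 1.99% of 7086 genes were called higher and 0.776% lower. The 5 include CD44, which held 0 to 2 counts per library in LNCaP. It could thus hardly be called there or for the difference between the lines. In 22Rv1, 2 of 5 were called, both higher, where 4.15% of genes were called higher and 1.55% lower. With libraries scaled by their totals alone, 99 of 189 calls in LNCaP and 144 of 375 in 22Rv1 were higher, against 141 of 196 and 294 of 404. By DESeq2, 1 and 2 of the 5 were called, and by limma-trend on the deposited values 0 and 0. For the difference between the lines, edgeR called 0 of 5 (1 at an unadjusted p under 0.05, EPCAM), and DESeq2 and limma-trend also called 0. Over all genes this difference was called positive for 0.268% and negative for 0.466%. In LNCaP the treated range lay clear of the control range for 2 of the 7 genes, against 19.4% of all genes tested, and in 22Rv1 for 4 of 7, against 23.0%. CD9 and CD24 are among these 7, so the last shares are descriptions.

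The untreated lines differed in the levels of several of these genes. With DMSO, CD9 averaged 721 ± 66.8 CPM (SD, n = 3) in LNCaP, 300 ± 2.88 in 22Rv1 and 354 in the PC3 library, and LNCaP exceeded 22Rv1 by 1.27 ± 0.13 (log2, SE). CD24 averaged 10.4 ± 5.39 CPM in LNCaP, 70.2 ± 6.36 in 22Rv1 and 236 in PC3, and LNCaP was below 22Rv1 by a log2 difference of -2.79 ± 0.32. The DMSO libraries are shared between these baseline values and the treatment responses of CD9 and CD24. Of these 2 lines, each gene was thus higher after treatment in the line that had less of it with DMSO.

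Of CD63, CD81, EPCAM and CD151, only CD63 passed the edgeR test between the lines with DMSO and was lower in LNCaP, where 24.0% of 7086 genes were called higher and 25.0% lower. CD63 averaged 365 ± 28.4 CPM in LNCaP and 625 ± 26.1 in 22Rv1, a log2 difference of -0.77 ± 0.13 (edgeR, adjusted p = 2.85e-06). CD44 held 3 counts over the LNCaP and 30 over the 22Rv1 DMSO libraries. The 22Rv1 level was 9.60 times the LNCaP level, with a counting interval from 2.99 to 49.2. Since CD44 passed the filter through its 22Rv1 libraries alone, this is a description without a test. With SEL120-34A, CD44 held 0 counts in LNCaP and 29 in 22Rv1, where its level was 11.2 times that of a floor of 3 counts over the LNCaP group. The lower 95% counting limit of the ratio, which includes the error of the 29 counts, was 8.56. CD81, EPCAM and CD151 did not pass the test (edgeR, adjusted p = 0.0655, 0.132 and 0.442). EPCAM passed in 2 of 21 alternative settings, with library totals (edgeR, adjusted p = 0.00577) and with at least 10 counts in every library (0.0411), and CD151 in 1, with library totals (0.0399). CD81 passed in 3, by limma-trend (0.0476) and by edgeR without 22Rv1 DMSO replicate 3 (0.0496) or 22Rv1 SEL120-34A replicate 2 (0.0471). Libraries of the lines did not overlap for 5 of the 7 genes (CD9, CD24, CD44, CD81 and CD63), against 56.4% of all genes. CD9 and CD24 were selected with the use of these DMSO libraries, and CD44 entered through 22Rv1 alone. This share is therefore a description.

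PC3 held the highest levels of CD24, CD44, EPCAM and CD151 and the lowest of CD81 among the lines, from 1 library per arm and therefore without a replicate check. CD44 was at 255 CPM with DMSO and 263 with SEL120-34A, EPCAM at 482 and 544, and CD151 at 290 and 307. CD81 was at 675 and 673 CPM and CD63 at 552 and 472. CD24 was at 236 CPM with DMSO and 461 with SEL120-34A, a log2 ratio of 0.96 with a counting interval from 0.70 to 1.23. CD9 was at 354 and 458 CPM, a log2 ratio of 0.37 (0.13 to 0.61). Of 4682 genes with at least 20 counts in both PC3 libraries the middle 95% had log2 ratios from -0.61 to 0.81, with a median of 0.06. CD24 lay above this range and CD9 within it. The other 5 genes had log2 ratios from -0.23 (CD63) to 0.17 (EPCAM).

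Ordered by mean level, CD9 was at 721 CPM in LNCaP DMSO, 697 in 22Rv1 SEL120-34A and 640 in LNCaP SEL120-34A libraries, whose ranges overlapped from each to the next. The PC3 libraries and the 22Rv1 DMSO libraries lay below them. For CD24, the 22Rv1 DMSO (70.2 CPM), LNCaP SEL120-34A (59.6) and 22Rv1 SEL120-34A (50.2) groups overlapped from each to the next, and LNCaP DMSO lay below all of them at 10.4 CPM. After treatment the levels of CD9 and of CD24 in LNCaP and 22Rv1 were thus closer together than with DMSO. The same libraries gave the differences in response on which both genes were selected, so this restates the selection and is a description.

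Ratios of 2 genes within a library do not depend on how libraries are scaled. CD24 per 100 CD9 counts was 0.545, 1.77 and 2.16 in LNCaP DMSO and 11.5, 8.66 and 7.53 in LNCaP SEL120-34A libraries. It was 23.7, 21.4 and 25.2 in 22Rv1 DMSO and 9.17, 4.57 and 8.84 in 22Rv1 SEL120-34A libraries. With DMSO the lines were far apart, and with SEL120-34A their ranges overlapped. Both genes were selected on their responses in these libraries, so this pattern restates that selection and is a description. In PC3 the ratio was 66.8 with DMSO and 101 with SEL120-34A.

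Of the summed counts of the 4 tetraspanins CD9, CD81, CD63 and CD151, CD9 made up 29.4% to 31.8% in LNCaP DMSO and 26.3% to 26.7% in LNCaP SEL120-34A libraries. In 22Rv1 its share was 14.2% to 15.4% with DMSO and 22.2% to 25.9% with SEL120-34A. CD63 made up 14.6% to 16.3% in LNCaP DMSO and 19.7% to 21.6% in LNCaP SEL120-34A libraries. In 22Rv1 the CD63 share was 29.8% to 31.6% with DMSO and 27.4% to 30.1% with SEL120-34A. CD9 thus gained share in 22Rv1 and CD63 in LNCaP, in every treated library against every control. Shares add to a whole, so a larger share of 1 gene lowers that of the others. CD9 was selected on its responses in these libraries, so its shares are descriptions.

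**Figure D3:**
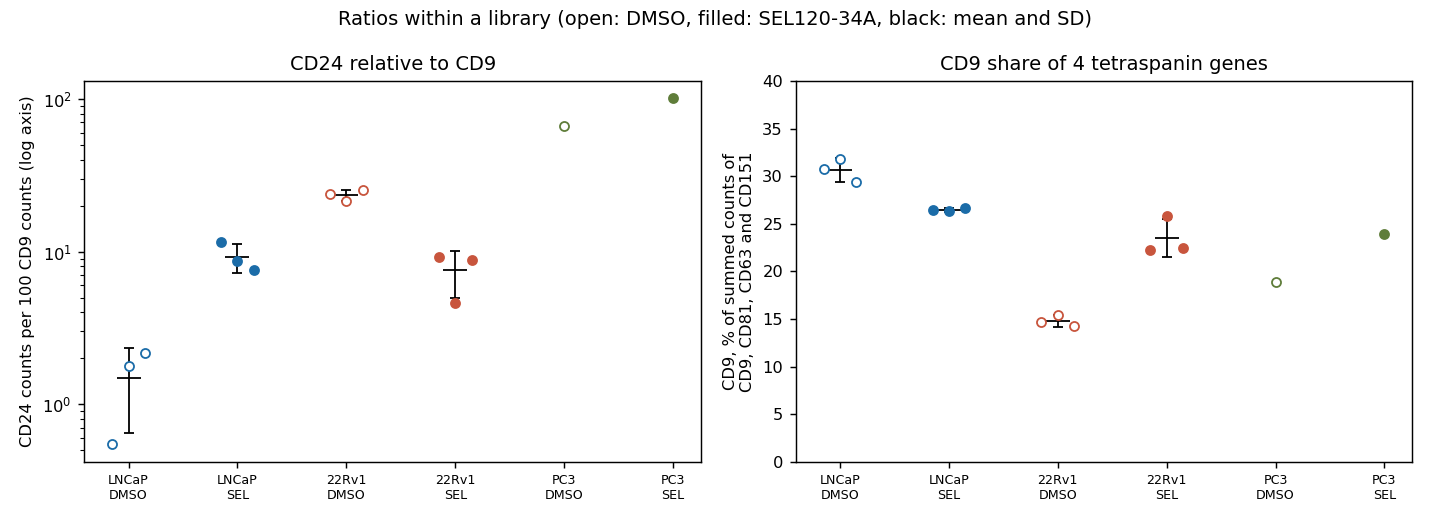
Left, CD24 counts per 100 CD9 counts (log axis), and right, CD9 as a percentage of the summed counts of 4 tetraspanin genes (axis from 0), per library on the x axis by cell line and treatment. Open points are DMSO and filled points SEL120-34A, and black marks give mean and SD of 3 libraries. In 22Rv1 the CD9 share was 14.2% to 15.4% with DMSO and 22.2% to 25.9% with SEL120-34A.

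Genes related to the 7 were examined in 5 lists, whose counts stand beside the 1.99% of all genes called higher and 0.776% called lower in LNCaP and the 4.15% and 1.55% in 22Rv1. Of 29 other tetraspanins, 9 could be tested, and edgeR called 0 in LNCaP and 0 in 22Rv1, with 0 at an unadjusted p under 0.05 and 0 by DESeq2 and limma-trend. Their median log2 change was -0.10 in LNCaP and 0.01 in 22Rv1, beside 0.00 over all genes in each line. With DMSO, 6 of the 9 were higher and 1 lower in LNCaP than in 22Rv1, beside 24.0% and 25.0% of all genes. Among these were TSPAN1 (log2 difference 4.55) and TSPAN8 (-5.37). Genes so much higher in 1 line can pass the low-count filter through that line alone, so these counts are descriptions.

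Of 18 partners of tetraspanins, which include integrins, claudins and proteases, 6 could be tested. CLDN7, a claudin of epithelial junctions that binds EPCAM, was the 1 called in 22Rv1, where it fell from 402 ± 48.0 to 270 ± 39.2 CPM (SD, n = 3). Its log2 fold change was -0.58 ± 0.14 (edgeR, adjusted p = 0.00976), and it was also called by DESeq2 (0.0102) and limma-trend (0.0328). Without 22Rv1 SEL120-34A replicate 1 it did not pass (edgeR, adjusted p = 0.118). In LNCaP it changed by -0.16 ± 0.13 (adjusted p = 0.646), and the difference between the lines did not pass the test (adjusted p = 0.404). The median of the 6 was -0.23 in LNCaP and -0.46 in 22Rv1. Of 16 partners of CD44, CD24 and EPCAM, 6 could be tested and edgeR called 0 in either line (0 in LNCaP and 2 in 22Rv1 at an unadjusted p under 0.05, and 0 by DESeq2 and limma-trend), with medians of -0.19 and -0.43.

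Of 18 genes of extracellular vesicle assembly, 14 could be tested and 1 was called, LAMP2 in LNCaP. LAMP2, which encodes a major lysosomal membrane glycoprotein, was at 125 ± 13.8 CPM with DMSO and at 210 ± 49.0 CPM with SEL120-34A in LNCaP, a log2 fold change of 0.75 ± 0.18 (edgeR, adjusted p = 0.0134). It was not called by DESeq2 (0.0739) or limma-trend (0.189). Among LNCaP controls, leaving out replicate 2 or 3 ended the call (edgeR, adjusted p = 0.0586 and 0.102), as did leaving out treated replicate 1 or 2 (0.0843 and 0.241). In 22Rv1 its log2 fold change was 0.70 ± 0.30 (edgeR, adjusted p = 0.168). The median of the 14 was -0.07 in LNCaP and -0.04 in 22Rv1.

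Of 25 other surface glycoproteins, 14 could be tested, and ALCAM was called in LNCaP. ALCAM, which encodes the adhesion molecule CD166, was at 29.5 ± 6.22 CPM with DMSO and at 67.7 ± 16.8 CPM with SEL120-34A in LNCaP. Its log2 fold change was 1.31 ± 0.27 (edgeR, adjusted p = 0.00292, DESeq2 0.0211, limma-trend 0.0625), and without LNCaP SEL120-34A replicate 3 it did not pass (edgeR, adjusted p = 0.0643). In 22Rv1 it was -0.26 ± 0.26 (edgeR, adjusted p = 0.651). ALCAM was the only gene of the 5 lists called for the difference between the lines, 1.57 ± 0.38 (edgeR, adjusted p = 0.0336, limma-trend 0.141), and that value is given here after it was seen. The call for the difference was lost in 8 of 20 alternative settings, 6 of them by leaving out 1 library (replicates 1 and 3 of both LNCaP arms and replicates 1 and 2 of 22Rv1 SEL120-34A, with edgeR adjusted p = 0.0569 to 0.127). The median of the 14 was 0.18 in LNCaP and 0.06 in 22Rv1.

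**Figure D4:**
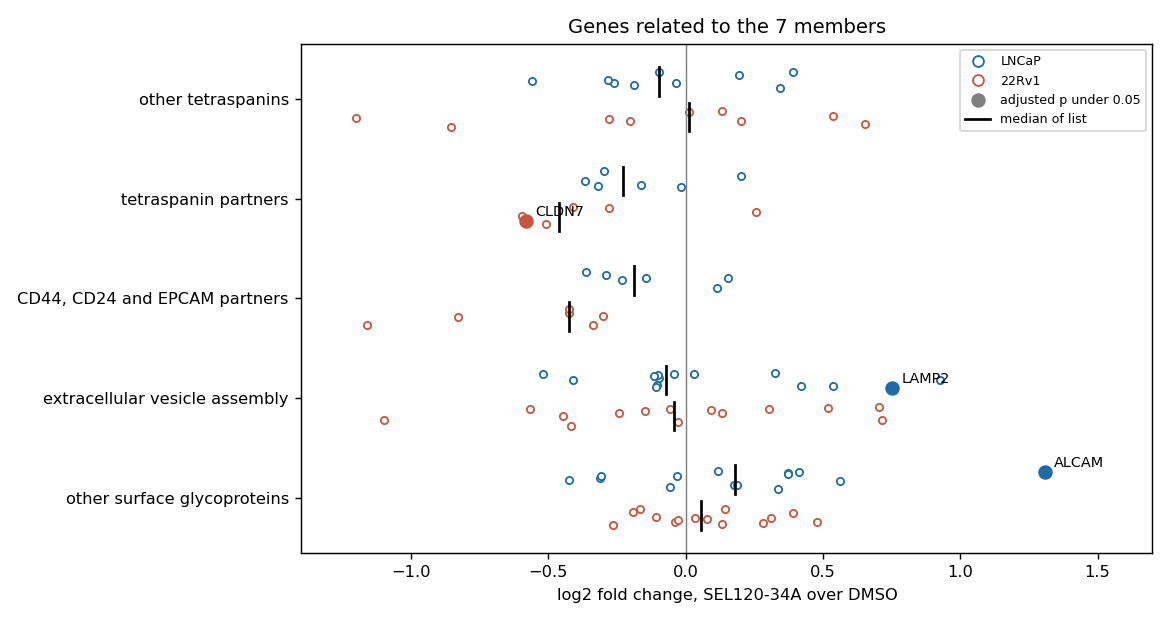
Change of every tested gene of 5 lists related to the 7 genes (x axis, log2 fold change of SEL120-34A over DMSO), one row per list, with LNCaP above 22Rv1. Large filled points passed an adjusted p of 0.05 and are named, small open points did not, and black lines are list medians. LAMP2 (0.75) and ALCAM (1.31) passed in LNCaP and CLDN7 (-0.58) in 22Rv1.

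The other lists were also compared between the lines with DMSO, where 24.0% of all genes were called higher in LNCaP and 25.0% lower. In LNCaP against 22Rv1, 1 of the 6 tetraspanin partners was called higher and 0 lower, and 0 of the 6 partners of CD44, CD24 and EPCAM higher and 1 lower. Of the 14 vesicle genes 2 were higher and 4 lower. Of the 14 other surface glycoproteins 5 were higher and 6 lower. Here too a gene can pass the low-count filter through 1 line alone, so these counts are descriptions. Whether they depart from the shares over all genes was not tested.

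Genes with a pattern like that of CD9, CD24 or CD44 were found as those with the smallest root mean square difference of centred log2 CPM over the 12 LNCaP and 22Rv1 libraries, among 3845 genes for CD9 and CD24 and 3846 for CD44. Nearest to CD9, whose own spread was 0.53 on this scale, were the tubulin gene TUBA4A (0.21), the ribosomal protein gene RPLP1 (0.21), whose copies in the genome make its count uncertain, and TIMM8B (0.23), which encodes a chaperone of mitochondrial import. TUBA4A was at 369 CPM in LNCaP DMSO, 363 in LNCaP SEL120-34A, 191 in 22Rv1 DMSO and 329 in 22Rv1 SEL120-34A libraries. Like CD9, it was thus lowest in the 22Rv1 controls.

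Nearest to CD24 (own spread 1.01) were the metallothionein gene MT2A (0.59), ZMIZ2 (0.59) and SLC35C2 (0.66). MT2A was at 21.4 CPM in LNCaP DMSO, 62.0 in LNCaP SEL120-34A, 64.2 in 22Rv1 DMSO and 55.3 in 22Rv1 SEL120-34A libraries, and its reads may be split with near-identical metallothionein genes. Nearest to CD44 (own spread 1.24) were CRELD2 (0.42), MANF (0.43) and TEX264 (0.44). CD44 held 0 to 2 counts in the LNCaP libraries. There its profile was set largely by the prior count of 2, a constant added before logs are taken, and not by a measured level. All genes named here as nearest were picked for likeness, so their values are descriptions. The libraries compared share line, depth and treatment arm.

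The growth protocol in the labels names 22Rv1 cells for all 14 libraries, those of LNCaP and PC3 included, and the lines were taken from the cell line label. To check the labels, markers of the cell types that a culture could hold were read in every library. All 7 markers of prostate luminal epithelium had counts in each group, with summed levels of 3709 to 4181 CPM in LNCaP DMSO and 2659 to 2988 in LNCaP SEL120-34A libraries. In 22Rv1 they were at 1024 to 1177 CPM with DMSO and 1064 to 1232 with SEL120-34A, and they were at 1257 and 1475 CPM in PC3. In LNCaP, where CD24 was higher after treatment, the summed level of these luminal markers was thus lower in all treated libraries. By edgeR, 3 of the 7 were called lower, KLK3, KLK2 and KRT18 (log2 -1.82, -1.37 and -0.46), beside 0.776% of all genes. FOLH1 (0.47) was the 1 called higher, beside 1.99% of all genes. DESeq2 and limma-trend each called 2 of the 7, KLK3 and KLK2. KRT18 did not pass by DESeq2 (adjusted p = 0.0822) or limma-trend (0.0850), and neither did FOLH1 (0.0560 and 0.228). The part of these markers in the CD24 result was not tested. The blood cell marker PTPRC was at 0 in all libraries, and the 5 blood markers together held 2 counts. The stromal genes COL1A2 and DCN and the endothelial gene CDH5 were at 0 in all libraries. The 5 stromal markers held up to 28 counts in any group of LNCaP or 22Rv1, and 86 and 49 in the PC3 libraries.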

How the data were processed

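RNA was measured by BRB-seq, a pooled 3′ tag method, in 14 libraries whose groups and replicate numbers come from the labels. The authors aligned and counted reads with STARsolo on GRCh38.p13 with the annotation of Gencode release 43, and the counts they deposited are raw and cover 62703 genes. Collapsing of molecular identifiers and the use of strand were not stated, so intervals and floors speak of counting error alone. A second table deposited by the authors holds log2 CPM values of 9638 genes, which TMM factors and a prior count of 2 gave again from the counts. Coordinates are those of GENCODE 44 on GRCh38.

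The 12 libraries of LNCaP and 22Rv1 were fitted together in edgeR 4.0.16 (R 4.3.3) with 1 mean per group, TMM factors, edgeR's low-count filter (7086 genes kept, all 7 members among them) and the quasi-likelihood F-test. It had 8 residual degrees of freedom and a common biological coefficient of variation of 11.1%. P-values are two-sided and were adjusted by Benjamini-Hochberg across the 7086 genes, with a threshold of 0.05. The SE of a log2 fold change is its absolute value divided by the square root of the F statistic of that test. It thus rests on the spread shared by the 12 libraries. Intervals are at 95%, and those of the fit are built on this SE. The model was tested on simulated data. Depth was 246063 to 909176 counts per library, and 3 counts served as the floor, 12.9 CPM in the shallowest and 3.27 CPM in the deepest library. Replicates differed by more than counting error (chi-square per degree of freedom 1.29 to 2.44), and none was a duplicate.

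The members and lists were chosen with earlier results of these data known. Besides the 7 members, genes were named from 5 lists where they passed the threshold in a line with a mean of at least 20 counts (up to 3 per direction), and the 3 genes nearest in pattern to CD9, CD24 and CD44. Alternatives were a replicate block, DESeq2 size factors, library totals, other filters, thinning, PC3 added, each line alone, each library left out, DESeq2 1.42.0 and limma-trend 3.58.1. No column of the tables was left unmapped.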

Additional observations from a re-analysis of the deposited data

Results flagged for a closer look

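CD9 was marked because its response to SEL120-34A differed between the lines, by -1.36 on the log2 scale (LNCaP minus 22Rv1), with a log2 fold change of -0.14 in LNCaP and 1.22 in 22Rv1. CD24 was marked for the same reason, by 2.96, with 2.51 in LNCaP and -0.44 in 22Rv1. Both genes were selected on this difference, so it carries no test. Over all alternative settings the difference ranged from -1.46 to -1.22 for CD9 and from 2.54 to 3.49 for CD24.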

How the results depend on the processing

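Deviations from the group means of same-numbered libraries correlated at 0.0847, -0.0479 and 0.115 in LNCaP and at 0.0208, -0.0128 and 0.0334 in 22Rv1. Those of different numbers correlated at -0.156 to 0.0697 in LNCaP and at -0.0715 to 0.0451 in 22Rv1. With 3 libraries per arm these values cannot tell whether the numbers pair the samples. The replicate block gave 240, 450, 68 and 3507 called genes for LNCaP, 22Rv1, their difference and the DMSO comparison of the lines, against 196, 404, 52 and 3473 without it, and changed no call of a member. Each library left out in turn gave 87 to 239 genes in LNCaP, 158 to 446 in 22Rv1, 24 to 57 for the difference and 3038 to 3723 between the DMSO lines, and 0 to 1, 0 to 2, 0 and 1 to 3 of the 5 tested members. The count between the DMSO lines includes CD44, which entered the fit through 22Rv1 alone, and it fell to 1 because CD44 did not pass the low-count filter in 8 of the 21 settings of that comparison. In LNCaP, genes called were 122 with at least 10 counts in every library, 100 after thinning, 90 by DESeq2 and 41 by limma-trend. In 22Rv1 they were 260 without a filter, 242 by DESeq2 and 201 by limma-trend. The difference gave 29, 31 and 5 with the count minimum, thinning and limma-trend, and the DMSO lines 1503 and 2095 with the minimum and thinning. Members called in LNCaP were 0 with library totals, no filter, thinning, PC3 added or limma-trend. In 22Rv1 they were 0 with library totals, no filter, limma-trend or the line alone, and 1 with the count minimum, thinning or PC3 added. Between the DMSO lines 4 were called with library totals and 1 after thinning. Signs turned for CD81 in LNCaP (-0.0355 with library totals, -0.0226 with no filter), CD151 in 22Rv1 (-0.0111 with library totals), CD151 in LNCaP (-0.217 to 0.0290 with 1 library left out, the sign turning without SEL120-34A replicate 3) and the CD63 difference (-0.108 after thinning, -0.0333 to 0.137 with 1 library left out, 4 of these below 0), none of them called. Library totals moved the median of all genes by -0.08 in LNCaP, -0.14 in 22Rv1 and -0.24 between the DMSO lines, and left 99 of 189, 144 of 375 and 1211 of 3573 calls higher. The causes of these shifts were not tested. CD9 and CD24 kept their signs in every setting that held them, and CD24 dropped out with the count minimum. In LNCaP, CD24 rested on 3 to 22 counts per library and CD44 on 0 to 2.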
